A study of Homo sapiens with 6 samples.

Results

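The EGF receptor family and its ligands were followed as 9 genes, the receptor genes EGFR, ERBB2 and ERBB3 and the ligand genes HBEGF, TGFA, EREG, AREG, BTC and NRG1. They were picked by symbol, without use of their measured values, from 23368 gene symbols in a table of RNA-seq read counts. Of the 9 members, 7 passed the filter on low counts and were tested, while AREG and BTC did not pass it. The cells were MDA-MB231, a breast cancer cell line of the triple-negative kind, kept in DMEM with 10% FCS. They were transfected with siL1 or siL2, different siRNAs against LSD1, or with a control siRNA (siControl), with 2 libraries per group. LSD1 is the histone lysine demethylase encoded by KDM1A. A knockdown by siRNA lowers a transcript without removing the gene, and the labels give 1 transfection procedure, with the reagent Interferin, for all groups. In such bulk samples, fewer cells of a type and less RNA per cell cannot be told apart. TGFA is on chromosome 2, EREG, AREG and BTC are on chromosome 4, HBEGF on 5, EGFR on 7, NRG1 on 8, ERBB3 on 12 and ERBB2 on 17.

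ERBB receptors are tyrosine kinases of the cell surface that pair with each other when an EGF-like ligand binds. EGFR binds HB-EGF, transforming growth factor alpha, epiregulin, amphiregulin and betacellulin, ERBB3 binds neuregulins, and ERBB2 has no known ligand of its own and serves as a partner. The ligands are made as membrane-bound precursors that are cut free by ADAM proteases, and the paired receptors signal through the RAS-ERK and PI3K-AKT pathways. Triple-negative breast cancers lack amplified ERBB2 and often carry abundant EGFR.

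The libraries held 22047738 to 26765079 counts, and 3 counts, the limit that a count of 0 allows, stood at 0.112 to 0.136 CPM, the count scaled by that library's total count. This limit covers counting error only. KDM1A stood at 27.7 and 28.1 CPM in the siL1 libraries and at 17.4 and 18.1 CPM in the siL2 libraries, against 158 and 165 CPM in the siControl libraries. It fell by 2.53 with siL1 and fell by 3.19 with siL2 on the log2 scale (edgeR adjusted p = 1.09e-11 and 2.16e-12). The labels do not say whether replicates were separate cultures, so the spread that the p-values rest on is that of these libraries alone and may be technical. The mesenchymal markers VIM, CD44, AXL, CAV1 and MSN together gave 7814 to 7912 CPM with siL1, 8571 to 8635 CPM with siL2 and 7988 to 8228 CPM with siControl. All 5 were tested, and 1 was higher and 4 lower with siL1, while 2 were higher and 0 lower with siL2. AXL averaged 1892 CPM with siL1 against 1530 CPM with siControl, and CD44 averaged 552 against 710 CPM. The receptor genes ESR1 and PGR and the cadherin gene CDH1 averaged at most 0.0560 CPM in any group. All 9 luminal and epithelial markers together gave 517 to 536 CPM with siL1, 406 to 421 CPM with siL2 and 518 to 526 CPM with siControl, nearly all of it KRT8 and KRT18. Of the 5 tested, 2 were higher and 1 lower with siL1, and 1 was higher and 3 lower with siL2. Of 8 fibroblast and endothelial markers, DCN and LUM had 0 counts in all libraries. Their summed level was 10.5 to 12.1 CPM with siL1, 6.37 to 6.91 CPM with siL2 and 3.51 to 3.72 CPM with siControl, most of it PDGFRB in the knockdown groups. Of 8 blood cell markers, HBB had 0 counts in all libraries, and CD68 made up nearly all of a sum of 207 to 272 CPM.

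With siL1 the 4 tested ligand genes passed the test, and the 3 receptor genes did not. HBEGF and TGFA rose and NRG1 and EREG fell, so 4 of the 7 tested members passed, 2 higher and 2 lower, beside 50.4% of all 13322 genes tested in either direction. With siL2 the ligand gene EREG rose and the receptor genes EGFR and ERBB2 fell by small amounts, so 3 of 7 passed, beside 45.8% of all genes. Between the siRNAs, siL2 against siL1, 5 of 7 passed, EREG and NRG1 higher and HBEGF, TGFA and ERBB2 lower, beside 46.8% of all genes. These shares of members are not far from those of all genes, and the results below are therefore about which member moved and how far. At a threshold of 0.01 the counts of members were 3, 1 and 3 for the comparisons in this order, beside 37.2%, 33.4% and 33.9% of all genes. The libraries of the groups compared did not overlap for 4, 5 and 6 of the 7 members, beside 74.7%, 72.9% and 73.3% of all genes. With siL2 the count was 1 without siL2 replicate 2, and for siL2 against siL1 it was 3 without siL1 replicate 1. The median log2 fold change of the 7 tested members was -0.02 with siL1 and -0.11 with siL2, against -0.0139 and -0.0036 for all genes tested. A gene passed where its Benjamini-Hochberg adjusted p, over all genes tested with edgeR's quasi-likelihood test, was under 0.05. The siL1 and siL2 comparisons share their siControl libraries.

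**Figure D1:**
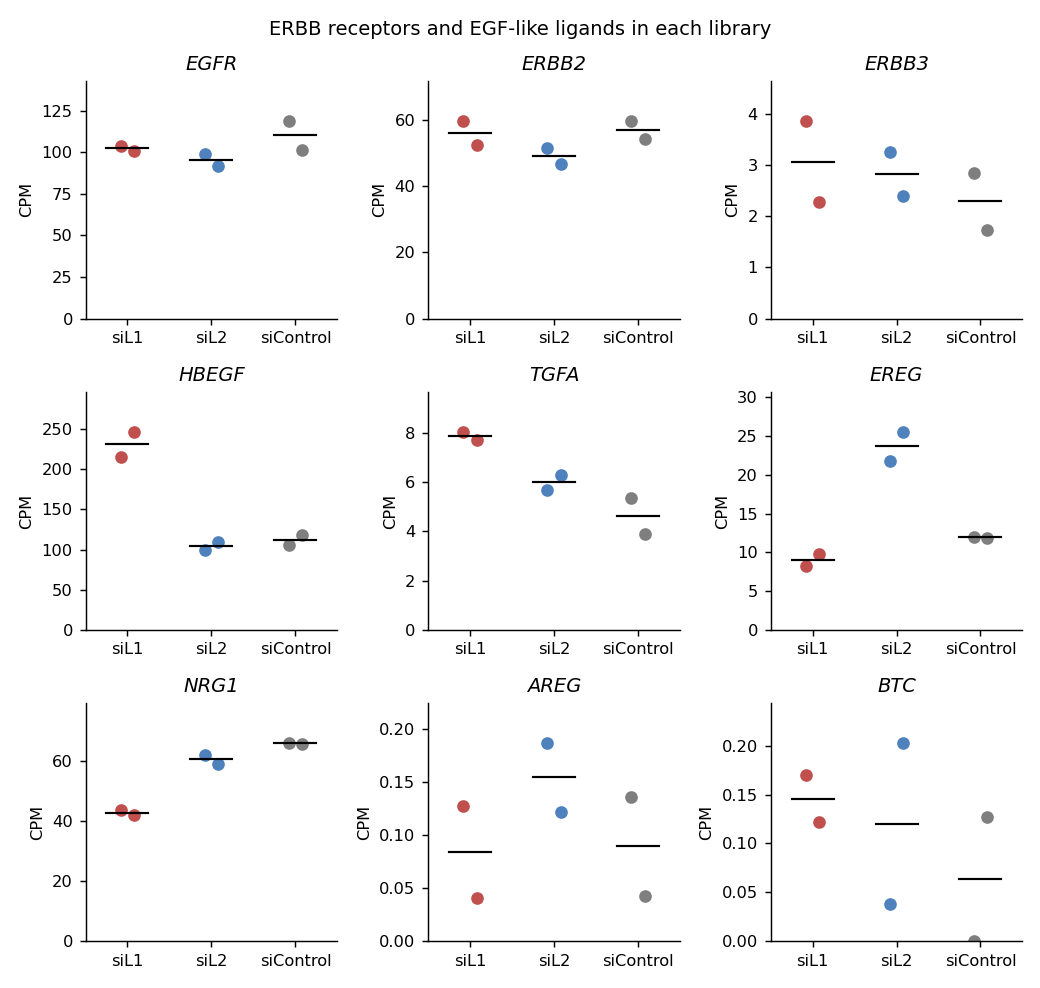
CPM (vertical axis, from 0) of the 9 members in each library, in the order siL1, siL2 and siControl. Points are libraries and lines are means of 2. HBEGF stood apart with siL1 (231 CPM, against 112 CPM with siControl) and EREG with siL2 (23.7 CPM, against 11.96 CPM), while AREG and BTC reached at most 0.203 CPM in any library.

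Of the receptor genes, EGFR and ERBB2 passed with siL2, and none of the 3 passed with siL1. EGFR, which encodes the EGF receptor, had 104 and 101 CPM in the siL1 libraries and 99.2 and 91.7 CPM in the siL2 libraries, against 119 and 101 CPM in the siControl libraries. All siL2 libraries lay below both siControl libraries, and the siL1 libraries overlapped with them. EGFR fell by 0.21 on the log2 scale with siL2 (95% interval -0.35 to -0.06, edgeR adjusted p = 0.0213). With siL1 its log2 fold change was -0.10 (interval -0.24 to 0.05, edgeR adjusted p = 0.237). The siL2 call rested on single libraries: without siControl replicate 1 the log2 change was -0.09 (edgeR adjusted p = 0.278), and without siL2 replicate 2 it was -0.16 (edgeR adjusted p = 0.12).

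ERBB2, the partner receptor also known as HER2, had 59.7 and 52.5 CPM after siL1 and 51.5 and 46.6 CPM after siL2, against 59.8 and 54.2 CPM with siControl. The siL2 libraries were again the lowest, and the siL1 libraries overlapped with the siControl libraries. ERBB2 fell by 0.22 on the log2 scale with siL2 (interval -0.38 to -0.06, edgeR adjusted p = 0.0276), and its siL1 value was -0.02 (interval -0.18 to 0.14, edgeR adjusted p = 0.85). Set against siL1, the siL2 level differed by -0.20 on the log2 scale (edgeR adjusted p = 0.0399). The call against siControl ended with DESeq2 (adjusted p = 0.0533), without siControl replicate 1 (edgeR adjusted p = 0.201) and without siL2 replicate 2 (edgeR adjusted p = 0.169). The difference from siL1 ended with DESeq2 (adjusted p = 0.0656) and without siL1 replicate 1 or siL2 replicate 2 (edgeR adjusted p = 0.318 and 0.231). In the authors' deposited table neither receptor passed 0.05 with siL2, with adjusted p of 0.318 for EGFR and 0.0957 for ERBB2.

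ERBB3, the neuregulin receptor with little kinase activity of its own, was low and variable. It had 3.87 and 2.27 CPM after siL1 and 3.25 and 2.40 CPM after siL2, against 2.86 and 1.74 CPM with siControl. The groups overlapped, and replicate 1 was the higher library in each, as it was for EGFR and ERBB2. For HBEGF replicate 2 was the higher library in each group. The log2 fold change of ERBB3 was 0.43 with siL1 (interval -0.20 to 1.05, edgeR adjusted p = 0.24). With siL2 the ERBB3 value was 0.31 (interval -0.32 to 0.93, edgeR adjusted p = 0.41). Changes of up to 2.07-fold in ERBB3 with siL1 thus lie within the interval. Without any 1 library the siL1 value ran between 0.0046 (without siL1 replicate 1) and 0.82 (without siControl replicate 1).

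Set per length of merged exons, EGFR stood at 8.18, 7.62 and 8.80 CPM per kilobase with siL1, siL2 and siControl. ERBB2 stood at 5.43, 4.75 and 5.52 CPM per kilobase in the same groups, and ERBB3 at 0.340, 0.312 and 0.254 CPM per kilobase. EGFR was thus the most abundant of these receptor transcripts in every group. The neuregulin receptor ERBB4, which is no member, had 0 to 3 counts in every library.

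HBEGF had the largest rise of the 7 tested members with siL1, except without siControl replicate 1, where TGFA was at 1.02 and HBEGF at 0.98 on the log2 scale. It encodes heparin-binding EGF-like growth factor, which binds EGFR and ERBB4. It had 216 and 247 CPM after siL1 and 99.2 and 109.5 CPM after siL2, against 106 and 118 CPM with siControl. Both siL1 libraries lay far above all others, and the siL2 and siControl libraries overlapped. HBEGF rose 2.07-fold with siL1 (log2 fold change 1.05, SE 0.0708, edgeR adjusted p = 1.27e-07), ranking 480 from the highest of 13322 genes. With siL2 its log2 fold change was -0.11 (interval -0.26 to 0.05, edgeR adjusted p = 0.257). The change with siL2 differed from that with siL1 by -1.16 on the log2 scale (SE 0.0707, edgeR adjusted p = 6.98e-08). In the authors' deposited table the fold change of HBEGF was 2.08 with siL1 and 0.930 with siL2. Per kilobase of exon HBEGF was the most abundant member, at 76.6, 34.6 and 37.1 CPM per kilobase with siL1, siL2 and siControl.

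TGFA, the gene of transforming growth factor alpha, a ligand of EGFR, had 8.04 and 7.71 CPM after siL1 and 5.68 and 6.29 CPM after siL2, against 5.35 and 3.89 CPM with siControl. No pair of groups overlapped, and the order was siL1, siL2, siControl from high to low. TGFA rose 1.71-fold with siL1 (log2 fold change 0.78, SE 0.154, edgeR adjusted p = 0.00104). With siL2 its log2 fold change was 0.37 (interval 0.03 to 0.72) and missed the threshold (edgeR adjusted p = 0.0742). The siL2 value moved with single libraries: it was 0.16 without siControl replicate 2 (edgeR adjusted p = 0.512) and 0.295 without siL2 replicate 2 (edgeR adjusted p = 0.252), and with DESeq2 its adjusted p was 0.198. It passed without siControl replicate 1 (log2 fold change 0.61, edgeR adjusted p = 0.0167), with no filter on low counts (edgeR adjusted p = 0.0492) and in a fit blocked by replicate number (0.37, edgeR adjusted p = 0.0187). Set against siL1, the siL2 level differed by -0.41 on the log2 scale (edgeR adjusted p = 0.0354). That difference ended with DESeq2 (adjusted p = 0.134) and without siL1 replicate 1, siL1 replicate 2 or siL2 replicate 1 (edgeR adjusted p = 0.128, 0.0898 and 0.167). The summed fibroblast and endothelial markers had the same order of groups as TGFA, and their part in the result was not tested.

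NRG1 had the largest fall of the 7 tested members with siL1. It encodes neuregulin 1, which binds ERBB3 and ERBB4 and thereby recruits ERBB2. It had 43.6 and 42.0 CPM after siL1 and 62.0 and 59.1 CPM after siL2, against 66.0 and 65.8 CPM with siControl. The siL1 libraries stood well below the rest, and the siL2 libraries were slightly below both siControl libraries. After siL1, NRG1 fell by 0.62 on the log2 scale (SE 0.0543, edgeR adjusted p = 1.32e-06), ranking 553 from the lowest of 13322 genes. With siL2 its log2 fold change was -0.13 (interval -0.24 to -0.01, edgeR adjusted p = 0.0656), which missed the threshold, and a fit blocked by replicate number passed it (-0.13, edgeR adjusted p = 0.0121). NRG1 was higher with siL2 than with siL1 by 0.49 on the log2 scale (SE 0.0541, edgeR adjusted p = 1.12e-05).

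EREG passed in opposite directions with the siRNAs. It encodes epiregulin, which binds EGFR and ERBB4. It had 8.29 and 9.78 CPM after siL1 and 21.8 and 25.6 CPM after siL2, against 12.02 and 11.89 CPM with siControl. The siL2 libraries were the highest and the siL1 libraries the lowest, with no overlap between any pair of groups. EREG rose 1.97-fold with siL2 (log2 fold change 0.98, SE 0.107, edgeR adjusted p = 1.02e-05), ranking 351 from the highest of 13322 genes. After siL1 it fell by 0.40 on the log2 scale (SE 0.122, edgeR adjusted p = 0.016). The difference between siL2 and siL1 was 1.38 on the log2 scale (SE 0.111, edgeR adjusted p = 7.55e-07). The fall with siL1 was the less secure of these: it missed the threshold without siControl replicate 1 (edgeR adjusted p = 0.0543), without siControl replicate 2 (edgeR adjusted p = 0.0509) and without siL1 replicate 1 (log2 change -0.28, edgeR adjusted p = 0.135). Of all genes tested, 534 passed with both siRNAs in opposite directions, or 4.01%, and 25.2% passed with both in the same direction. EREG was the only member that passed with both in this fit. In a fit blocked by replicate number EGFR, HBEGF, TGFA and NRG1 passed with both as well, HBEGF in opposite directions (log2 fold change 1.05 with siL1 and -0.10 with siL2, edgeR adjusted p = 1.44e-48 and 0.0128).

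**Figure D2:**
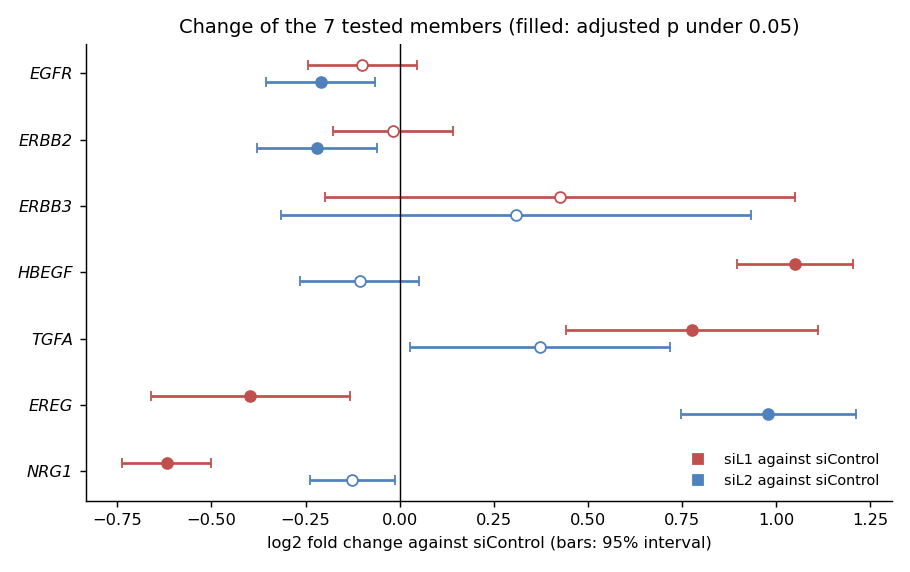
Log2 fold change against siControl (horizontal axis) of the 7 tested members with siL1 (upper mark of each pair) and siL2 (lower mark), with 95% intervals, filled where the adjusted p was under 0.05. HBEGF was at 1.05 with siL1 and -0.11 with siL2, and EREG was at -0.40 with siL1 and 0.98 with siL2, while the intervals of ERBB3 span 0 with both.

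The 2 genes whose profile over the 6 libraries was closest to that of EREG were FAM3C and MGAT4B. Closeness was the Euclidean distance between log2 CPM profiles, each centred on its own mean, among 10446 genes averaging 5 CPM or more over the libraries. FAM3C, the gene of a secreted cytokine-like protein, stood at a distance of 0.343 and had 10.8 and 12.5 CPM after siL1 and 36.6 and 37.8 CPM after siL2, against 18.7 and 16.8 CPM with siControl. MGAT4B, the gene of an N-glycan-branching enzyme, stood at a distance of 0.399 and had 111 and 107 CPM after siL1 and 225 and 223 CPM after siL2, against 134 and 128 CPM with siControl. Both genes were thus lowest with siL1 and highest with siL2, as EREG was. Their choice by closest profile in the same libraries made this nearly certain, so it adds no support.

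AREG and BTC, the genes of the EGFR ligands amphiregulin and betacellulin, were near the limit of counting. AREG had 3 and 1 counts with siL1, 5 and 3 counts with siL2 and 3 and 1 counts with siControl. BTC had 4 and 3 counts with siL1, 1 and 5 counts with siL2 and 0 and 3 counts with siControl. The groups overlapped for both genes, and no change was detectable at this depth. The AREG value is uncertain, because the hg19 assembly carries near-identical copies of the AREG region and the treatment of reads that match both is not given in the sources used here.

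EPGN, EREG, AREG and BTC, all EGFR ligand genes, follow each other in this order among the protein-coding genes of chromosome 4. EPGN, the gene of epigen, had 7 and 8 counts with siL1, 12 and 20 counts with siL2 and 9 and 9 counts with siControl. Its log2 fold change was -0.33 with siL1 (edgeR adjusted p = 0.61) and 0.65 with siL2 (edgeR adjusted p = 0.23). Per kilobase of exon, EREG stood at 1.58, 4.14 and 2.09 CPM with siL1, siL2 and siControl, and EPGN at 0.172, 0.347 and 0.218 CPM in the same groups. EREG was the most abundant of the 4 transcripts of this cluster in every group. Next to the cluster, MTHFD2L, the gene of a mitochondrial folate enzyme, had log2 fold changes of -0.15 with siL1 (edgeR adjusted p = 0.572) and 0.21 with siL2 (edgeR adjusted p = 0.387). PARM1 on the other side had -0.49 with siL1 (edgeR adjusted p = 0.0685) and -0.53 with siL2 (edgeR adjusted p = 0.054). RCHY1, farther along, rose by 0.24 with siL1 and by 0.40 with siL2 on the log2 scale (edgeR adjusted p = 0.018 and 0.000671). THAP6 rose by 0.41 with siL2 (edgeR adjusted p = 0.00137), and its siL1 value was -0.04 (edgeR adjusted p = 0.707). These neighbours were chosen by position after the values of EREG were seen.

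**Figure D3:**
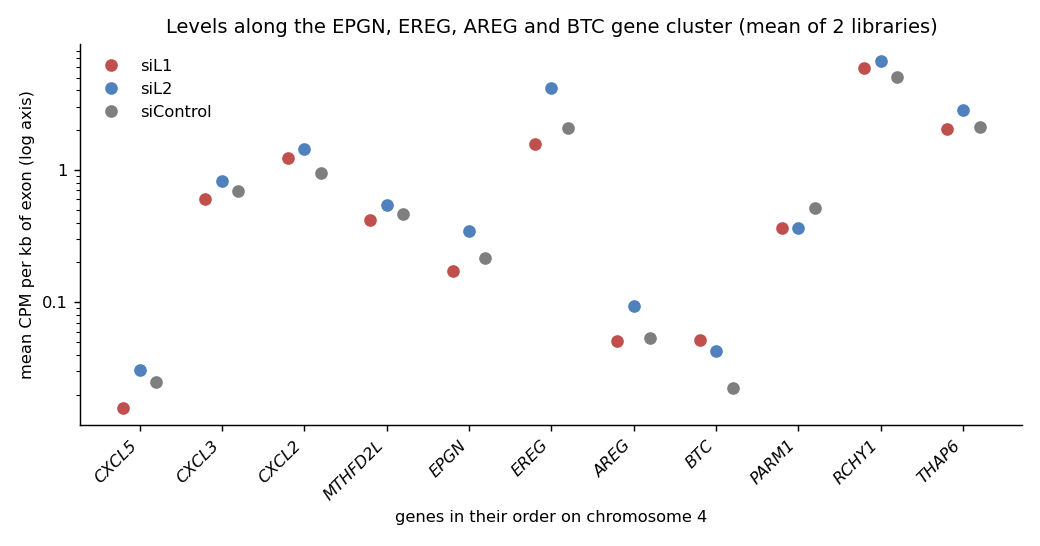
Mean CPM per kilobase of exon (vertical log axis; points are means of 2 libraries) of 11 protein-coding genes in their order on chromosome 4, for siL1, siL2 and siControl from left to right at each gene. EREG stood at 1.58, 4.14 and 2.09 CPM per kilobase, above EPGN, AREG and BTC in each group.

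Transcripts of EGF-like ligands are known to be short-lived, and several carry AU-rich elements, repeats of the motif ATTTA, in the 3' UTR. The longest annotated 3' UTR of each member in GENCODE v29 (GRCh38) was therefore searched on the transcript's strand for ATTTA, counting overlapping matches. AREG held 4 in 269 bases, or 14.9 per kilobase. EREG held 20 in 3943 bases (5.07 per kilobase), BTC 12 (6.26 per kilobase), TGFA 13 (3.63 per kilobase), HBEGF 5 (3.43 per kilobase) and NRG1 12 (3.37 per kilobase). All ligand transcripts were above the median of 1.71 per kilobase over 11381 tested genes with a 3' UTR, of which 74.6% held the motif at least once. The receptors lay below that median, with 1.5 per kilobase in EGFR, 1.38 in ERBB3 and no match in ERBB2. NRG1 was left out of the count of the densest 30 bases. Those of AREG and EREG are shown with ATTTA in capitals, because they held 3 each in so short a stretch. The other members whose densest stretch was counted held at most 2.
AREG, bases 190 to 219 of the 3' UTR: tcaagttgtaaataATTTATTTAatATTTA
EREG, bases 2557 to 2586 of the 3' UTR: aatccATTTAtttcATTTAcaaaagATTTA
Of the tested ligand genes, HBEGF and TGFA rose and NRG1 and EREG fell with siL1. With siL2, EREG rose, and HBEGF, TGFA and NRG1 did not pass in the main fit. A link between ATTTA density and these changes was not tested. The matches describe the letters only.

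The same 3' UTRs were searched, on the same strand, for 4 heptamers that earlier results of these data had listed among strongly changed transcripts. The first is TACATTT, present in 27.0% of the tested genes with a 3' UTR. It overlaps by 6 letters with the second, ACATTTA, which 22.4% of these genes hold. The third is ACAGAGC, held by 18.0% of them, and the last is GTTACAA, held by 9.56%. HBEGF held 1 TACATTT and 1 GTTACAA. TGFA held a single site in which the first and the second heptamer overlap, EREG held 1 ACATTTA, and EGFR held each of the first 3 heptamers once. BTC held TACATTT at 2 sites, 1 of which also matches ACATTTA. ERBB2, ERBB3, AREG and NRG1 held no match in the 3' UTR searched. Sites of the members that passed with at least 1 siRNA, 1 for each heptamer or overlap and for EGFR only that of ACAGAGC, are shown with the heptamer in capitals.
HBEGF, bases 789 to 818 of the 3' UTR: tattgtctgtcTACATTTctgcagatcttc
HBEGF, bases 1372 to 1401 of the 3' UTR: atttctgaactGTTACAActtgtatttcca
TGFA, bases 1547 to 1576 of the 3' UTR: atcgtgaaaggTACATTTaaaatatgttaa
EREG, bases 763 to 792 of the 3' UTR: tgtatattacaACATTTAtgtgaggtaatt
EGFR, bases 1901 to 1930 of the 3' UTR: actgtgagagcACAGAGCagggaggttggg
HBEGF, TGFA, EREG and EGFR held a match to TACATTT or ACATTTA, as 35.3% of tested genes with a 3' UTR did. That share is not matched for length. The 3' UTRs of TGFA, EREG and EGFR had 3579, 3943 and 6011 bases, against a median of 1424 bases. With siL1, HBEGF and TGFA rose, EREG fell and EGFR did not pass in the main fit. With siL2, EREG rose, EGFR fell by a small amount, and HBEGF and TGFA did not pass in that fit. NRG1, which fell with siL1, and ERBB2, which fell by a small amount with siL2, held none of these heptamers. A link between the heptamers and the changes was not tested.

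Genes around the receptors were described by lists chosen from general knowledge. The proteases that release EGF-like ligands and the iRhoms that carry ADAM17 to the surface were mostly higher. Of 9 such genes, all tested, 8 rose and 0 fell with siL1 (median log2 fold change 0.39), beside 24.7% of all genes higher and 25.7% lower. With siL2, 6 rose and 0 fell (median 0.24), beside 22.6% of all genes higher and 23.3% lower. ADAM17, the main sheddase of TGF-alpha, HB-EGF and epiregulin, had 80.9 and 84.8 CPM after siL1 and 76.9 and 73.5 CPM after siL2, against 64.8 and 62.2 CPM with siControl. No pair of these groups overlapped, and ADAM17 rose by 0.39 with siL1 and by 0.24 with siL2 on the log2 scale (edgeR adjusted p = 5.46e-05 and 0.00237). RHBDF1, the gene of iRhom1, rose by 0.64 with siL1 and by 0.53 with siL2 (edgeR adjusted p = 6.04e-06 and 3.19e-05). ADAM19, a protease known to cut neuregulin, rose by 0.81 and 0.33 (edgeR adjusted p = 3e-07 and 0.00067), and ADAM9 by 0.49 and 0.14 (edgeR adjusted p = 1.52e-06 and 0.0189). ADAM12 had 5.57 and 6.57 CPM after siL1 and 2.47 and 3.65 CPM after siL2, against 1.77 and 2.07 CPM with siControl. It rose by 1.66 with siL1 and by 0.65 with siL2 on the log2 scale (edgeR adjusted p = 2.94e-05 and 0.0358). The siL2 calls of ADAM9 and ADAM12 each ended without siControl replicate 1 (edgeR adjusted p = 0.0984 and 0.156) and without siL2 replicate 2 (edgeR adjusted p = 0.0912 and 0.311), and that of ADAM12 also without siControl replicate 2 (edgeR adjusted p = 0.0633), with DESeq2 (adjusted p = 0.0816) and with limma-voom (adjusted p = 0.0586). The list count with siL1 was 7 to 8 and with siL2 4 to 6 without any 1 library, and with siL2 it was 4 with DESeq2 and 3 at a threshold of 0.01. Of the 4 tested fibroblast and endothelial markers, 2 were higher with siL1 and 1 with siL2, PDGFRB making up most of the summed level in the siL1 and siL2 libraries, and their part in these counts was not tested.

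Of the 6 related genes ERBB4, EGF, EPGN, NRG2, NRG3 and NRG4, only EPGN and NRG2 passed the count filter. NRG2, another neuregulin gene, had 3.83 and 3.81 CPM after siL1 and 2.13 and 1.502 CPM after siL2, against 1.18 and 1.57 CPM with siControl. After siL1 it rose by 1.47 on the log2 scale (SE 0.222, edgeR adjusted p = 0.000127), while NRG1 fell, and its siL2 value was 0.40 (edgeR adjusted p = 0.216). NRG3 had 0 counts in all libraries, where 3 counts would be 0.112 to 0.136 CPM.

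Among 20 adaptor and RAS-ERK cascade genes, all tested, 6 rose and 2 fell with siL1 and 6 rose and 5 fell with siL2, beside 24.7% of all genes higher and 25.7% lower with siL1, and 22.6% higher and 23.3% lower with siL2. Apart from the low number of falls with siL1, these counts are near the shares of all genes, so the values of single genes follow as a description. SHC1, an adaptor of activated receptors, had 318 CPM in both siL1 libraries and 257 and 263 CPM with siL2, against 150 and 142 CPM with siControl. It rose by 1.13 with siL1 and by 0.83 with siL2 on the log2 scale (edgeR adjusted p = 9.2e-10 and 7.88e-09). The docking protein gene GAB1 rose by 0.52 and 0.63 (edgeR adjusted p = 0.00433 and 0.00122), and the adaptor GRB2 fell by 0.24 with siL1 and fell by 0.16 with siL2 (edgeR adjusted p = 0.000146 and 0.00286). The ERK scaffold KSR1 rose by 0.45 with siL1 and fell by 0.52 with siL2 (edgeR adjusted p = 0.0148 and 0.0117). Its calls ended without siControl replicate 2 or siL1 replicate 1 for siL1 (edgeR adjusted p = 0.158 and 0.0837) and without siControl replicate 1 or siL2 replicate 2 for siL2 (edgeR adjusted p = 0.131 and 0.0871). MAP2K2, the gene of the kinase MEK2, was singled out after its values were seen: it fell by 1.16 on the log2 scale with siL2 (edgeR adjusted p = 5.93e-09), and its siL1 value was -0.09 (edgeR adjusted p = 0.163). The number higher with siL1 was 3 without siControl replicate 2. The number lower with siL1 was 1 without siControl replicate 1 or siL1 replicate 2, and that with siL2 was 3 without siControl replicate 1 or siL2 replicate 2.

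Of 20 genes of the PI3K-AKT, PLC and STAT branches, all tested, 6 rose and 3 fell with siL1 and 5 rose and 6 fell with siL2, beside 24.7% of all genes higher and 25.7% lower with siL1, and 22.6% higher and 23.3% lower with siL2. The kinase genes AKT1 (0.67 with siL1 and 0.45 with siL2) and SRC (0.79 and 0.44) rose on the log2 scale with both siRNAs, each with an edgeR adjusted p of at most 0.000762. PIK3R2, a regulatory subunit of PI3K, had 61.6 and 53.1 CPM after siL1 and 97.6 and 97.9 CPM after siL2, against 116 and 109.5 CPM with siControl. It fell by 0.97 with siL1 (edgeR adjusted p = 8.49e-08) and fell by 0.21 with siL2 (edgeR adjusted p = 0.0111), the second call ending without siControl replicate 1 (edgeR adjusted p = 0.0832). The number higher with siL1 was 3 without siL1 replicate 2, the number lower with siL1 was 5 without siL1 replicate 1, and the number lower with siL2 was 3 without siControl replicate 1.

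A list of inhibitors and other regulators of the receptors and their pathway held 24 genes, of which 23 were tested. With siL1, 10 rose and 4 fell, beside 24.7% of all genes higher and 25.7% lower. With siL2, 6 rose and 5 fell, beside 22.6% of all genes higher and 23.3% lower. The siL2 counts are near those shares and are no result about the list. The list also holds USP8 and UBASH3B, which are not inhibitors of the receptors. Both are among the genes higher with siL1, by 0.31 and 0.62 on the log2 scale (edgeR adjusted p = 0.000593 and 1.28e-07). Neither passed with siL2 (edgeR adjusted p = 0.143 and 0.158). ERRFI1, a direct inhibitor of EGFR family kinases, rose by 0.20 with siL1 and by 0.35 with siL2 (edgeR adjusted p = 0.0068 and 0.000124). SOCS4 rose by 0.32 and 0.50 (edgeR adjusted p = 0.000144 and 3.48e-06), and the ERK phosphatase gene DUSP4 by 0.74 and 0.22 (edgeR adjusted p = 3.78e-07 and 0.00626). The phosphatase gene PTPN1 rose by 0.14 with siL1 and fell by 0.22 with siL2 (edgeR adjusted p = 0.0112 and 0.000763). The siL1 call of ERRFI1 ended without siControl replicate 1 or siL1 replicate 2 (edgeR adjusted p = 0.0775 and 0.071), that of PTPN1 without siL1 replicate 2 (edgeR adjusted p = 0.106), and the siL2 call of DUSP4 without siL2 replicate 2 (edgeR adjusted p = 0.0604). The number higher with siL1 was 5 without siControl replicate 1 and 4 without siL1 replicate 2.

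Of 20 genes of receptor endocytosis and sorting, all tested, 4 rose and 8 fell with siL1 and 7 rose and 5 fell with siL2, beside 24.7% of all genes higher and 25.7% lower with siL1, and 22.6% higher and 23.3% lower with siL2. AP2A1, a subunit of the clathrin adaptor AP-2, fell by 0.36 with siL1 and rose by 0.28 with siL2 (edgeR adjusted p = 5.14e-06 and 4.1e-05). EPS15L1 fell by 0.27 with siL1 and fell by 0.41 with siL2 (edgeR adjusted p = 0.00223 and 0.000131), and the sorting nexin SNX1 fell by 0.18 and fell by 0.30 (edgeR adjusted p = 0.0033 and 7.15e-05). SH3KBP1, a partner of the ubiquitin ligase CBL, rose by 0.23 and 0.43 (edgeR adjusted p = 0.000663 and 4.3e-06). The number lower with siL1 was 5 without siL1 replicate 1.

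Transcripts known to follow ERK signalling were read beside the ligands, as far as RNA allows. Of 22 such genes, all tested, 12 rose and 2 fell with siL1 (median log2 fold change 0.23), and 7 rose and 7 fell with siL2 (median 0.0028), beside 24.7% of all genes higher and 25.7% lower with siL1, and 22.6% higher and 23.3% lower with siL2. Of these, 7 are also in the list of inhibitors and other regulators. PLAUR, the urokinase receptor gene, had 108.5 and 109.2 CPM after siL1 and 76.6 and 72.7 CPM with siL2, against 53.8 and 62.1 CPM with siControl. It rose by 0.91 and 0.36 on the log2 scale (edgeR adjusted p = 1.36e-07 and 0.000476). IER3 rose by 0.57 with siL1 and by 0.84 with siL2 (edgeR adjusted p = 5.1e-05 and 1.99e-06), and ETV5 by 0.26 and 0.23 (edgeR adjusted p = 0.000252 and 0.000855). MYC fell by 0.44 with siL1 and fell by 0.70 with siL2 (edgeR adjusted p = 6.1e-05 and 1.32e-06). EGR1 and FOS, the most immediate of these transcripts, were named after their values were seen and did not pass with either siRNA against siControl. EGR1 had log2 fold changes of 0.29 with siL1 and -0.13 with siL2, and FOS had 0.24 and -0.43. Both were lower with siL2 than after siL1, by log2 differences of -0.41 for EGR1 and -0.67 for FOS (edgeR adjusted p = 0.027 and 0.0165). The number lower with siL1 was 1 without siControl replicate 2 or siL1 replicate 1, and the number higher with siL2 was 4 without siL2 replicate 2.

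**Figure D4:**
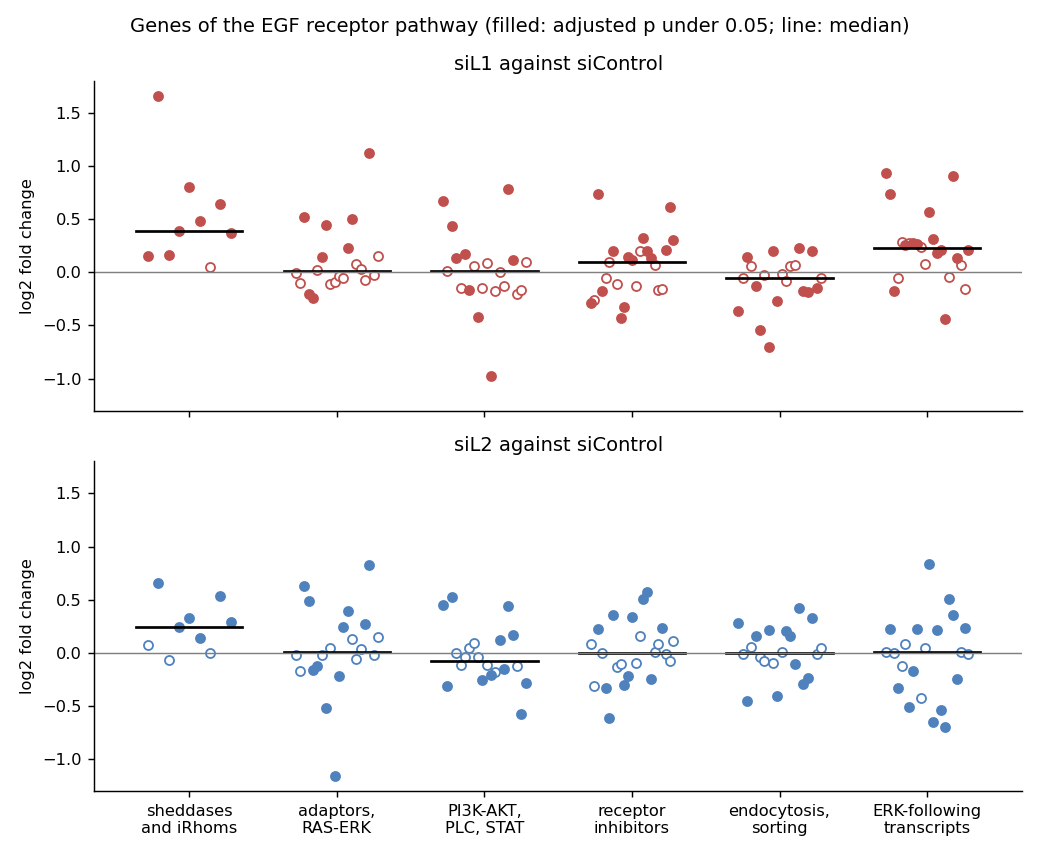
Log2 fold change against siControl (vertical axis) of the tested genes of 6 pathway lists, with siL1 in the upper and siL2 in the lower panel. Points are genes, filled where the adjusted p was under 0.05, and lines are medians. The medians of sheddases and iRhoms were 0.39 and 0.24, and those of ERK-following transcripts 0.23 and 0.0028.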

How the data were processed

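Per the submitters' processing notes, reads were aligned with TopHat 1.3.3 to hg19, counted with HTSeq and compared with DESeq. Which annotation, strand option and other settings were used is not given in the sources used here. The authors deposited raw counts per gene symbol, without normalization, for 6 libraries. The deposited table also holds a linear fold change, the ratio of siL1 or siL2 to siControl, as well as an adjusted p-value, both computed by the authors. Of 23368 symbols, 5745 had 0 counts throughout.

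CPM is the count divided by the library total. Per-kilobase levels used merged exons of GENCODE v29 (GRCh38), joined by symbol, so they only approximate the hg19 annotation. Tests used R 4.3.3 with edgeR 4.0.16: filterByExpr by group (13322 genes tested, 10046 left out), TMM, and glmQLFit and glmQLFTest on all 6 libraries with no covariate but the group (3 residual degrees of freedom, common biological coefficient of variation 3.72%), two-sided, Benjamini-Hochberg adjusted over all genes tested. SE is the absolute log2 fold change over the square root of F, and intervals are approximate 95% t intervals on the total degrees of freedom of that fit. On simulated data with changes planted in siL1, the test found 75 of 100 log2 changes of 0.5 and 90 of 100 of 1, with 11 false calls among 13122 genes. With siL2 it found 78 and 92, with 17 false calls. The simulation left 13122 of 13322 genes unchanged, whereas 50.4% of genes passed in the data with siL1 and 45.8% with siL2. Its rates may therefore not hold for these comparisons.

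Replicates of a group differed by more than counting noise. Named list genes were up to 4 per list with the smallest value of the larger of both p-values, plus any passing with both siRNAs at a log2 change of at least 1 with either. For a member passing with both, the 2 genes of closest profile were named; other named genes were chosen after their values were seen, as stated there. Some genes that the rule or the lists hold are not reported here. Profiles of log2 CPM used a pseudocount of 0.5. The members and lists were chosen with earlier results of these data known. Alternatives were DESeq2 size factors, upper quartile scaling, other filters, DESeq2 1.42.0, limma-voom (limma 3.58.1), a replicate block, only the groups compared, each library left out, and a threshold of 0.01. The 3' UTRs were those of at least 50 bases, and 85.4% of the tested genes had one. Searches and figures used Python 3.11.15, numpy 2.4.6, scipy 1.17.1, pandas 2.3.3 and matplotlib 3.10.9.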

Additional observations from a re-analysis of the deposited data

Results flagged for a closer look

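For 5 of the 7 tested members the change with siL2 differed from the change with siL1, by edgeR's test of siL2 against siL1 over 2 libraries each. The same test called 46.8% of all 13322 genes, so the count is no result about the members. The log2 difference, siL2 minus siL1, was 1.38 for EREG (adjusted p = 7.55e-07) and 0.49 for NRG1 (adjusted p = 1.12e-05). It was -1.16 for HBEGF (adjusted p = 6.98e-08), -0.41 for TGFA (adjusted p = 0.0354) and -0.20 for ERBB2 (adjusted p = 0.0399). For EREG, NRG1, HBEGF and TGFA both libraries of one siRNA lay apart from both of the other by more than the spread within either group. The TGFA call nevertheless ended under several alternatives, as given above. How many of all genes lay apart in this way was not counted. By the looser measure of libraries that do not overlap between these groups, the share of all genes was 73.3%. For KDM1A itself the same difference was -0.66 (edgeR adjusted p = 4.36e-06), and its part in these differences was not tested.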

How the results depend on the processing

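The calls of HBEGF, TGFA and NRG1 with siL1 and of EREG with siL2 held under all 15 alternatives, as did those of EREG, HBEGF and NRG1 between the siRNAs. Leaving out 1 library, HBEGF with siL1 ranged from 0.94 to 1.151, TGFA from 0.56 to 1.02, NRG1 from -0.64 to -0.60 and EREG with siL2 from 0.86 to 1.10. The number of members called with siL2 was 3, beside 6106 of all 13322 genes tested. It was 1 at a threshold of 0.01 (beside 4450 genes) and 6 with the replicate number as a block (beside 7610 genes). For siL2 against siL1 it was 5 (beside 6240 genes), 3 with DESeq2 (beside 4733) and 3 at 0.01 (beside 4517). With siL1 it was 4 (beside 6712 genes). It was 3 to 5 over the alternatives that left out no single library (beside 4959 to 8036 genes). The counts of all genes thus moved as well. Members near 0 turned sign: ERBB2 with siL1 was 0.0047 with upper quartile scaling and -0.107 to 0.0655 without any 1 library. Without any 1 library EGFR with siL1 ran from -0.213 to 0.0185, ERBB3 with siL2 from -0.0142 to 0.703, and ERBB3 between the siRNAs from -0.45 to 0.30. The cause was not tested. Where a library is left out, the lone sample of its group is assumed to vary like the others. EGFR with siL1 passed without siControl replicate 2 (-0.21, adjusted p = 0.0128). Of 420 list counts, recomputed after seeing the data, 394 stayed within 1.5 times.

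Same-numbered libraries deviated together weakly (correlations of replicate 1 deviations 0.14 for siL1 with siControl, 0.20 for siL2 with siControl and 0.13 for siL2 with siL1), and with 2 numbers per group the labels do not show pairing. With the replicate block, EGFR with siL1 (-0.10, adjusted p = 0.0294) and between the siRNAs (-0.11, adjusted p = 0.0124) passed, and so did HBEGF (-0.10, adjusted p = 0.0128), TGFA and NRG1 with siL2. Depth limits AREG and BTC, at 0 to 5 counts per library.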

Other observations

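Of 114 genes in the pathway lists, 109 were tested, and 11 (10.1%) passed with both siRNAs in opposite directions, beside 4.01% of all genes tested, while 31 (28.4%) passed with both in the same direction, beside 25.2%. The 11 genes were chosen after their values were seen. Those of clathrin-mediated endocytosis ran in both senses: CLTC, AP2A1 and EPN2 fell with siL1 (log2 fold changes -0.125, -0.36 and -0.70) and rose with siL2 (0.15, 0.28 and 0.21), whereas AP2M1 rose by 0.15 with siL1 and fell by 0.46 with siL2. GAB2, a docking protein of receptor signalling, fell by 0.20 with siL1 and rose by 0.49 with siL2, as EREG did in direction. MCL1, JUNB, ETV4, KSR1, PTPN1 and SPRED1 rose with siL1 and fell with siL2. Each of the 11 also passed the test of siL2 against siL1, with an edgeR adjusted p of at most 0.000311. Their selection by opposite calls in the same fit made this nearly certain, so it adds no support.

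CCND1, the gene of cyclin D1 and among the transcripts known to follow ERK signalling, averaged 1022 CPM with siL1 and 542 CPM with siL2, against 537 CPM with siControl. It rose by 0.93 on the log2 scale with siL1 (edgeR adjusted p = 4.75e-09), and its siL2 value was 0.0080 (edgeR adjusted p = 0.897). Between siL2 and siL1 the log2 difference was -0.92 (edgeR adjusted p = 7.84e-09). CCND1 was singled out after its values were seen.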
